A study of Mus musculus with 9 samples.

Results

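Polycomb repressive complex 1 (PRC1) attaches ubiquitin to histone H2A, giving the mark H2AK119ub that the deubiquitinase BAP1 removes, and the genes described here encode its enzymatic core. They are *Ring1*, *Rnf2*, *Bmi1*, *Pcgf1*, *Pcgf2*, *Pcgf3*, *Pcgf5*, *Pcgf6*, *Rybp* and *Yaf2*, which are 10 of the 37273 genes of the GENCODE M1 annotation on mm9. They were taken by name, as parts of the ligase that opposes BAP1. A gene was counted as having a gene-proximal BAP1 peak when the middle of a listed peak lay within 1 kb of any of its annotated transcription start sites (TSSs), and otherwise its nearest peak was sought up to 50 kb away.

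In PRC1, RING1 or RNF2 (also called RING1B) is the ubiquitin ligase and pairs with one of the PCGF proteins, and the choice of PCGF protein sets which form of the complex is built. The canonical complexes, which carry CBX and PHC proteins, are built with BMI1 or PCGF2, whereas PCGF1, PCGF3, PCGF5 and PCGF6 belong to variant complexes. In the variant complexes RYBP or its relative YAF2 takes the place of the CBX protein. The ligase and BAP1 thus act on the same residue in opposite directions, and the present comparison asks where BAP1 sits on the genes of the opposing enzyme.

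The peaks were mapped by ChIP-Seq in Ba/F3, a murine B cell precursor line grown with IL-3. One sample was wild type (WT) Ba/F3 precipitated with an anti-BAP1 antibody, and the other was Ba/F3 with stable expression of triple-FLAG-tagged murine BAP1, kept under puromycin and precipitated with anti-FLAG M2. Of the 9 samples in the series, the 3 H2AK119ub samples (WT and the *Bap1* knockout clones KO3 and KO4, each grown from a single sorted cell) and the 4 input samples were not analysed here. The tagged sample carries BAP1 beyond the cell's own, and both samples were sequenced once and share 1 deposited list. That list holds 13164 peaks of 200 bp with no height or score, so no replicate error can be attached to a value and binding strength was not compared. Sequencing depth is unknown. Gene expression was not measured in these samples, so the label of the line was not checked against marker genes.

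A gene-proximal BAP1 peak was present at 9 of the 10 genes (90.0%, 95% Wilson interval 59.6 to 98.2, counting error only). The exception was *Bmi1*. Over the whole annotation such a peak was present at 26.2% of all genes and at 39.6% of the 22367 protein-coding genes. In total 10 peaks lay at these genes, 1 at each bound gene and 2 at *Pcgf5*. The distances left a wide gap at the limit of 1 kb. Among the bound genes the nearest peak was 20 to 227 bp from a TSS, whereas the nearest peak of *Bmi1* was 4319 bp away. Of protein-coding genes, 23.2% fell in the same class as *Bmi1*, with a peak within 50 kb but none within 1 kb.

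**Figure D1:**
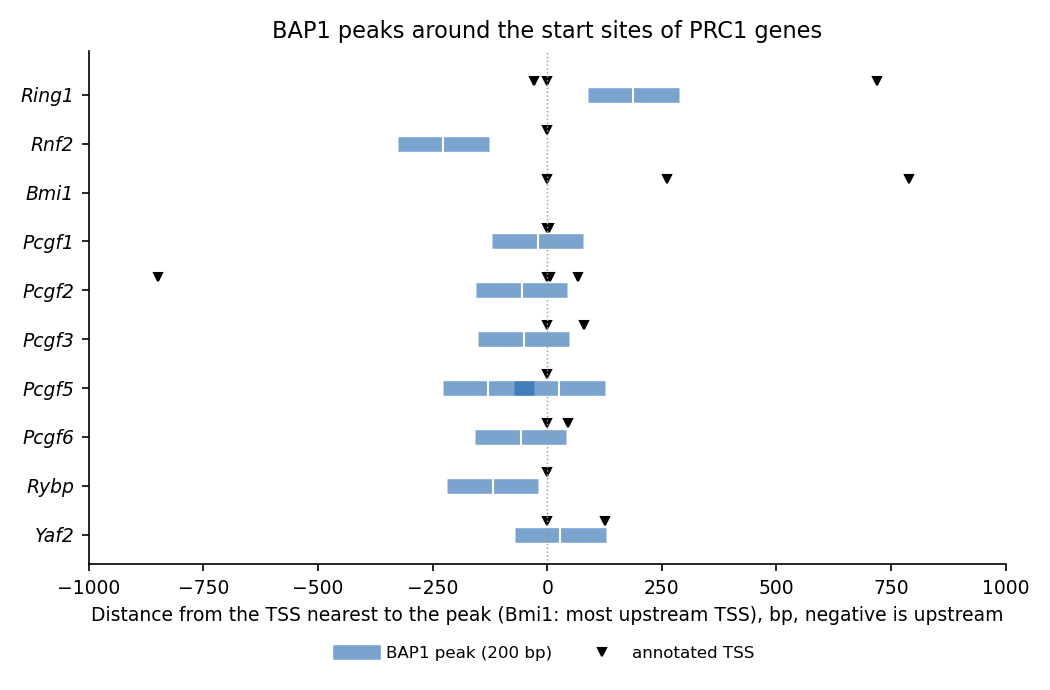
Position of each BAP1 peak (blue bars of 200 bp, white tick at the middle) relative to the annotated TSS nearest to it, in bp, with transcription running to the right and the other annotated TSSs as triangles. *Bmi1* is drawn from its most upstream TSS and has no peak in the window, while the middles for the other genes lie within 227 bp of the zero line.

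The catalytic subunits both carried a peak, on opposite sides of their start sites. *Ring1*, on the minus strand of chromosome 17 (34157737 to 34161625), had its peak at 34161310 to 34161509. The middle lay 215 bp downstream of the coding transcript's TSS and 187 bp downstream of a second TSS, inside an intron of both transcripts, and the peak covered none of its TSSs. This peak also lay within 1 kb of the annotated start of *Mir219-1*, a microRNA precursor on the same strand, and was the only one of the 10 peaks that fell within 1 kb of a TSS of another gene. *Rnf2*, on the minus strand of chromosome 1 (153316536 to 153347953), had its peak at 153348080 to 153348279. Its middle was 227 bp upstream of the only annotated TSS, and the interval ended before reaching it. RefSeq places the start of *Rnf2* 168 bp further upstream, at 153348121, which lies inside the peak and 59 bp from its middle. The sequences of both peaks are given below to show the bases under them, read 5′ to 3′ on the strand of the gene from the mm9 genome. Here and in the later sets annotated exons and bases after a RefSeq start are left out, and capitals mark the letters of the motifs named further on.
Ring1, intronic part of the peak (chr17:34161364-34161424, minus strand): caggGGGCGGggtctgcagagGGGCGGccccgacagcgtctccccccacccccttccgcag
Rnf2, part of the peak upstream of the RefSeq start (chr1:153348122-153348279, minus strand): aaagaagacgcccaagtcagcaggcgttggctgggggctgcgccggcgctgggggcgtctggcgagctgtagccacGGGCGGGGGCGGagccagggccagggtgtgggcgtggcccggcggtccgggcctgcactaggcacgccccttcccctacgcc
In both, the capitals mark GGGCGG, the GC box bound by SP and KLF factors. GC content was 76.5% under the *Ring1* peak and 77.5% under the *Rnf2* peak, against a median of 65% over all listed peaks (quartiles 57.5 and 71.0).

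The paralogs of canonical PRC1 differed. *Pcgf2* (also called Mel18), on the minus strand of chromosome 11 (97550137 to 97561811), had a peak at 97560918 to 97561117, whereas *Bmi1*, on the plus strand of chromosome 2 (18598645 to 18608256), had none within 1 kb of any of its 7 TSSs. The *Pcgf2* peak covered 2 TSSs that lie in an intron of another coding transcript, with its middle 56 bp upstream of the nearer one. It lay 793 bp downstream of the most upstream TSS. Of the 6 TSSs of *Pcgf2*, 4 were within 1 kb of this peak, and the remaining ones were 6.58 kb from the nearest peak. For *Bmi1* the distance to the nearest peak ranged from 4319 to 8408 bp over its TSSs. That peak, at 18594226 to 18594425, sat inside the upstream neighbor *Commd3*, 176 bp from a TSS of that gene. *Commd3* runs in the same direction as *Bmi1* and ends 786 bp before it. A pair of further peaks lay 13.2 and 13.4 kb from the nearest *Bmi1* TSS, both within 1 kb of a TSS of *Gm13334*. The bound and the unbound promoter are set side by side.
Pcgf2, part of the peak upstream of the covered TSSs (chr11:97560963-97561117, minus strand): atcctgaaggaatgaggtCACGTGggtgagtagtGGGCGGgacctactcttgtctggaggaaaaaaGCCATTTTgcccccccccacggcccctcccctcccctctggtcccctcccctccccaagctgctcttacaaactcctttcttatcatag
Bmi1, bases before the most upstream TSS, no peak (chr2:18598445-18598644, plus strand): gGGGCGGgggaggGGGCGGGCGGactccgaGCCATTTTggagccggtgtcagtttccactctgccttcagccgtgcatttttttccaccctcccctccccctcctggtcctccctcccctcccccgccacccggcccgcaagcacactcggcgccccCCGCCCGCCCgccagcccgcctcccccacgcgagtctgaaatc
Both stretches hold the GC box and the letters GCCATTTT, which match the YY1 motif AANATGGC read on the other strand. The *Pcgf2* stretch also holds the E-box CACGTG.

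The 4 PCGF genes named above for the variant complexes were all bound. *Pcgf1*, on the plus strand of chromosome 6 (83028380 to 83030841), had the peak closest to a TSS of the whole set, with its middle 20 bp upstream, and the interval from 83028260 to 83028459 covered both of its TSSs. *Pcgf3*, on the plus strand of chromosome 5 (108890251 to 108935995), had a peak at 108890100 to 108890299 with its middle 51 bp upstream of the first TSS. Of its 4 TSSs, 2 lay within 1 kb of that peak, and the internal ones, both of non-coding transcripts, were 12.7 and 25 kb from the nearest peak. *Pcgf6*, on the minus strand of chromosome 19 (47108109 to 47125380), had a peak at 47125338 to 47125537, 58 bp upstream of the first TSS and within 1 kb of both. The 3 promoters are shown because they differ in the motifs they hold.
Pcgf1, part of the peak upstream of the TSS (chr6:83028260-83028379, plus strand): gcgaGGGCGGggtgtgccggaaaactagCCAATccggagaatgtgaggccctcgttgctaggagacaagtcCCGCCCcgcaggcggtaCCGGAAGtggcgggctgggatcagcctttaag
Pcgf3, part of the peak upstream of the TSS (chr5:108890100-108890250, plus strand): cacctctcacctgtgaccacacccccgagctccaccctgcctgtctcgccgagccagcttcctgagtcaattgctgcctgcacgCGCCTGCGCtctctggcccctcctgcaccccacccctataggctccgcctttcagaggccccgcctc
Pcgf6, part of the peak upstream of the RefSeq start (chr19:47125397-47125537, minus strand): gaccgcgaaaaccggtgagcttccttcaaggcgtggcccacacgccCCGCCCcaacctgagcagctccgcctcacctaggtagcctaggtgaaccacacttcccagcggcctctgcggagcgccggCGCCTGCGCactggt
*Pcgf1* holds the GC box, a CCAAT box and the ETS motif CCGGAAG. *Pcgf3* and *Pcgf6* share the letters CGCCTGCGC, which match the NRF1 motif GCGCANGCG read on the other strand, and of these genes *Pcgf3* was the only one whose peak lacked the GC box.

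*Pcgf5*, on the plus strand of chromosome 19 (36453557 to 36530682), was bound at an internal start. GENCODE M1 gives it 2 TSSs, which are 30681 bp apart. The first was 30.6 kb from the nearest peak, while the second, inside an intron of the other transcript, had a pair of overlapping peaks at 36484010 to 36484209 and 36484165 to 36484364. Their middles were 0.128 kb upstream and 27 bp downstream of it. The start sites also differed in base composition, with a CpG ratio of 0.332 at the first and 0.980 at the second. The third peak near this gene, 30778 bp upstream of the first GENCODE TSS, lay within 1 kb of no annotated TSS. RefSeq, however, lists 3 starts for *Pcgf5*, and a promoter sequence of that table matched mm9 with its start at 36422819, so that this peak had its middle 40 bp upstream of a start of the gene. Peaks thus lay at 2 of the 3 RefSeq starts. The bases before each bound start, and before the start without a peak, are shown for comparison.
Pcgf5, peak upstream of the RefSeq start (chr19:36422679-36422818, plus strand): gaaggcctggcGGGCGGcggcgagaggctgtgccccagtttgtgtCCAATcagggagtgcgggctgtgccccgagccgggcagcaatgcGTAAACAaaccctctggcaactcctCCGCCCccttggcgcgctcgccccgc
Pcgf5, bases before the first GENCODE TSS, no peak (chr19:36453357-36453556, plus strand): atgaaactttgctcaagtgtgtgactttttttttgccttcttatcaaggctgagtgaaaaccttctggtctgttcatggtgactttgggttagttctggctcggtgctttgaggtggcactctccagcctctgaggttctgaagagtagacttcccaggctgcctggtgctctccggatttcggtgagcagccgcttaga
Pcgf5, first of the overlapping peaks at the internal start (chr19:36484010-36484209, plus strand): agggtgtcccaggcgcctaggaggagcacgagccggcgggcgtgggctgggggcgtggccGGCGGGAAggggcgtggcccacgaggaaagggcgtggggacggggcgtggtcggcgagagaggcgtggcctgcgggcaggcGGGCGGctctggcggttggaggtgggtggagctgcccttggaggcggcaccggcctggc
The stretch without a peak held none of the motifs searched. The upstream peak held a GC box, a CCAAT box and GTAAACA, the motif of forkhead factors including FOXK, and the internal peak held a GC box and the E2F motif TTCCCGCC, read on the other strand.

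*Rybp* and *Yaf2*, whose products belong to the variant complexes and bind the factor YY1 as well as the ligase, had 1 peak each. *Rybp*, on the minus strand of chromosome 6 (100178560 to 100237435), had its peak at 100237454 to 100237653. The middle was 0.119 kb upstream of its only TSS, which the interval did not cover. *Yaf2*, on the minus strand of chromosome 15 (93114709 to 93167366), had its peak at 93167238 to 93167437, which covered both of its TSSs with the middle 28 bp downstream of the upstream one and 99 bp upstream of the other. These were the most GC-rich peaks of the set, with 84.0% and 82.0% GC, and the most CpG-rich, with 41 and 38 CpG dinucleotides in 200 bp against 8 to 26 in the other peaks.
Rybp, the whole peak (chr6:100237454-100237653, minus strand): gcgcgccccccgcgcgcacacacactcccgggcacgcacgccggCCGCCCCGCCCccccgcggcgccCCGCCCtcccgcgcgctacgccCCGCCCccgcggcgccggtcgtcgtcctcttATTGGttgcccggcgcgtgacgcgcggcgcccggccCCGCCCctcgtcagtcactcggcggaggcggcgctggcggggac
Yaf2, part of the peak upstream of the TSS (chr15:93167367-93167437, minus strand): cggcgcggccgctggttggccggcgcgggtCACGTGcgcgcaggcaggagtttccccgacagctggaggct
In the *Rybp* peak the GC box recurs along the sequence with a CCAAT box on the other strand, and the *Yaf2* stretch holds an E-box. A match to the YY1 motif was found in neither peak.

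Read over TSSs rather than genes, 18 of the 30 distinct TSSs of these genes were within 1 kb of a peak (60.0%), and 7 of the 12 TSSs without one belonged to *Bmi1*. In 6 of the 10 peaks the interval covered at least one TSS of the gene. Neither share was computed over all genes, so these counts describe the set only. The nearest peak had its middle upstream of the TSS at 6 of the 9 bound genes (66.7%), against 75% of the 8850 bound protein-coding genes. The median position was -51.0 bp (quartiles -58.0 and 27.0), where negative is upstream, and -32.0 bp (-73.0 and 0.0) over all bound protein-coding genes. By distance alone, the median was 56.0 bp for these genes and 46.0 bp over all bound protein-coding genes. *Pcgf5* was the only bound gene here with more than 1 gene-proximal peak, whereas 25.5% of bound protein-coding genes had more than 1.

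**Figure D2:**
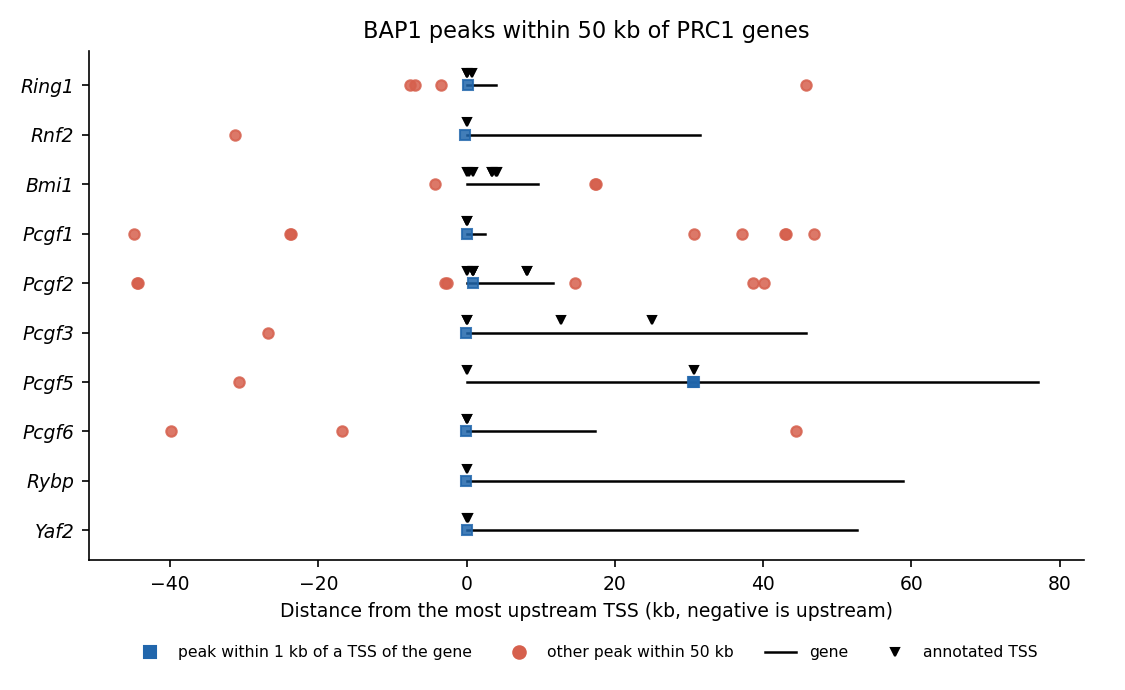
All BAP1 peaks within 50 kb of a TSS of each gene, plotted by distance from its most upstream TSS in kb, with the gene as a line, its TSSs as triangles, gene-proximal peaks as blue squares and other peaks as red circles. *Rybp* and *Yaf2* have no other peak in range, *Pcgf1* has 8, and the *Pcgf5* squares sit at the internal TSS.

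The surroundings of the bound promoters varied. Within 50 kb, *Pcgf1* had 8 further peaks and *Pcgf2* had 7, *Ring1* had 4, *Bmi1* and *Pcgf6* had 3, and *Rnf2*, *Pcgf3* and *Pcgf5* had 1. No other peak lay in that range of *Rybp* and *Yaf2*, whose next peaks were 292 and 61.4 kb from the TSS. Most of the further peaks were at start sites of other genes. At *Ring1*, which lies in the major histocompatibility complex, they were within 1 kb of TSSs of *H2-Ke6*, *Rxrb*, *Slc39a7*, *Gm20427* and *H2-K2*, the first of these 3.42 kb upstream. At *Pcgf2* the nearest were a pair 2.69 and 2.88 kb upstream, both within 1 kb of a TSS of *Psmb3*, which encodes a proteasome subunit. Peaks more than 1 kb from every annotated TSS were 31.2 kb upstream of *Rnf2*, 30.6 kb from the nearest *Pcgf2* TSS, 44.3 kb from the nearest *Pcgf6* TSS, and at *Pcgf5* as described.

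The bound genes had a CpG-rich start, taken as a ratio of at least 0.6, and so did *Bmi1*. The CpG ratio, which is the observed over the expected number of CpG dinucleotides within 500 bp of the TSS, was 0.662 at *Pcgf2*, 0.688 at *Pcgf3*, 0.813 at *Ring1*, 0.846 at *Pcgf6*, 0.859 at *Pcgf1*, 0.901 at *Rnf2*, 0.980 at *Pcgf5*, 1.04 at *Rybp* and 1.1 at *Yaf2*, each at the TSS nearest to the peak. Over 250 bp on each side the ratio of *Pcgf2* was 0.572, under that limit, and the others stayed above it. At the most upstream TSS of *Bmi1* it was 0.984, above 7 of the 9 bound genes. Over the set the median was 0.880, taking the TSS nearest to the peak, or the most upstream TSS for a gene without a gene-proximal peak. Taken the same way, the median was 0.771 for protein-coding genes with a gene-proximal peak and 0.294 for those without. At the most upstream TSS of each gene the median over the set was also 0.880. When genes were taken by the ratio at their most upstream TSS, 10205 protein-coding genes reached 0.6, of which 70.4% had a gene-proximal peak. By that measure 9 of the 10 genes were CpG-rich, *Pcgf5* being the exception, and 8 of these 9 were bound. Among protein-coding genes with a ratio of at least 0.9, like *Bmi1*, 429 of 1915 had no gene-proximal peak, and 77.6% had one. The counting interval of the 90.0%, which is 59.6 to 98.2, includes both the 70.4% and the 77.6%.

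**Figure D3:**
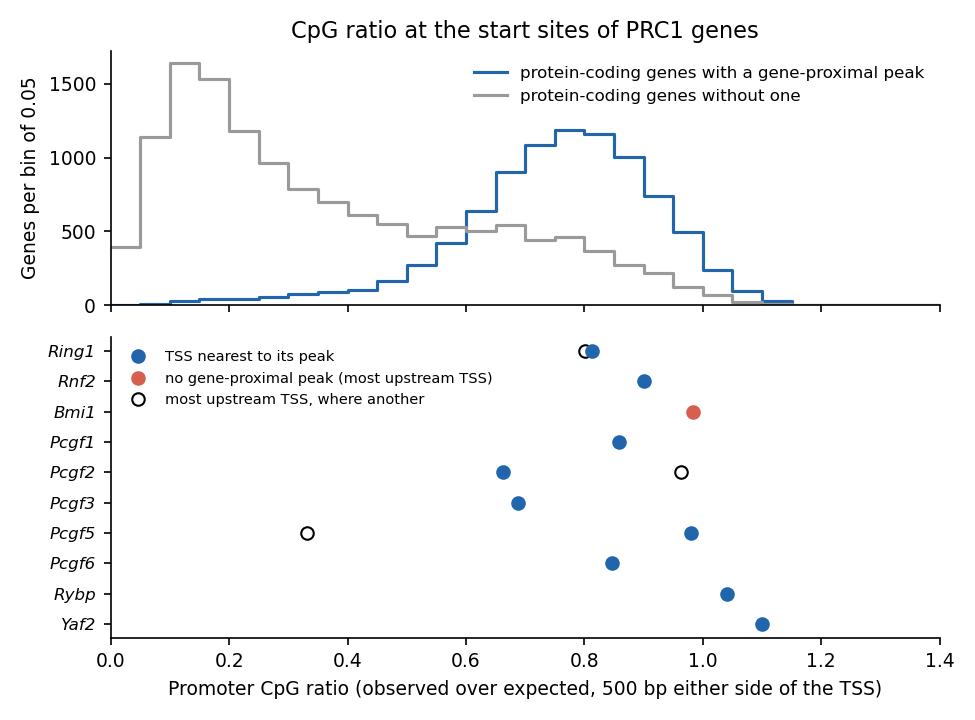
Upper panel, number of protein-coding genes per bin of the promoter CpG ratio, with (blue) and without (grey) a gene-proximal BAP1 peak. The ratio is taken at the TSS nearest to the peak for blue and at the most upstream TSS for grey. Lower panel, the ratio of each PRC1 gene at the TSS nearest to its peak (blue), at the most upstream TSS for *Bmi1* (red), and at the most upstream TSS where that is another one (open), where *Pcgf5* falls to 0.332 and *Pcgf2* rises to 0.963.

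Both strands of each peak were searched for 10 short motifs. The GC box GGGCGG was found in 9 of the 10 peaks at these genes and in 59.5% of all listed peaks. The NRF1 motif GCGCANGCG was found in 2 (*Pcgf3*, *Pcgf6*) and in 12.9% of all peaks, the YY1 motif AANATGGC in 2 (*Pcgf1*, *Pcgf2*) and in 7.60%, and the E-box CACGTG in 2 (*Pcgf2*, *Yaf2*) and in 7.04%. The CCAAT box was found in 2 (*Pcgf1*, *Rybp*) and in 28.5%, the ETS motif CCGGAAG in 1 (*Pcgf1*) and in 16.8%, and the E2F motif TTCCCGCC in 1 (*Pcgf5*) and in 3.05%. The cyclic AMP response element TGACGTCA, the forkhead motif GTAAACA and ACTACAANT, the motif of ZNF143 and THAP11, were found in 0 of the 10 peaks and in 2.80, 2.49 and 1.67% of all peaks. *Pcgf1* held the most kinds of motif, 4. In the central 100 bp of the peaks the E-box was found in 0 and the CCAAT box in 1 of the 10, and the GC box in 6, while 300 bp around the middle held the E2F motif at 2. Letters can be shared between motifs, since GGCGGGAA of E2F can overlap a GC box, and a match describes the sequence only.

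The subunits that assemble with these proteins, and the enzymes that act against them, were also examined. These lists came from general knowledge of the complexes. A gene-proximal peak was present at 31 of these 35 genes (88.6%, 95% Wilson interval 74.0 to 95.5, counting error only). The share was 39.6% over protein-coding genes and 70.4% over the CpG-rich ones. Because the lists were chosen with earlier results of these data known, the interval is no test against these shares. With only the TSS of the longest transcript 27 of the 35 had one, and 37.6% of protein-coding genes did. No interval was computed for that count. For the PCGF1 complex a gene-proximal peak was present at 5 of 5 genes (*Kdm2b*, *Bcor*, *Bcorl1*, *Skp1a*, *Usp7*). That count fell to 4 with a window of 500 bp, which lost *Usp7*, and to 2 with only the TSS of the longest transcript, which lost *Kdm2b*, *Bcor* and *Usp7*. For the PCGF6 complex it was 9 of 9 (*L3mbtl2*, *Mga*, *Max*, *E2f6*, *Tfdp1*, *Wdr5*, *Cbx3*, *Hdac1*, *Hdac2*). For the PCGF3 and PCGF5 complexes it was 5 of 7, with *Auts2* and *Fbrs* lacking one. *Auts2*, whose product is thought to turn such a complex towards activation, had a CpG-rich start with a ratio of 0.981 and no peak within 50 kb. *Fbrs* had its nearest peak 7.15 kb from a GENCODE TSS, but 885 bp upstream of its RefSeq start, a comparison made after seeing the data. Of the canonical subunits 8 of 10 had a peak, the exceptions being *Cbx7*, with the nearest peak 4.70 kb downstream of a TSS, and *Scml2*, with none within 50 kb. Both canonical genes had CpG-poor starts, with ratios of 0.456 and 0.357. The 4 genes of H2A deubiquitinases that were examined were bound, with the middle of the nearest peak 1 bp from the TSS at *Usp16*, 7 bp at *Usp21*, 22 bp at *Mysm1* and 85 bp at *Bap1* itself.

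**Figure D4:**
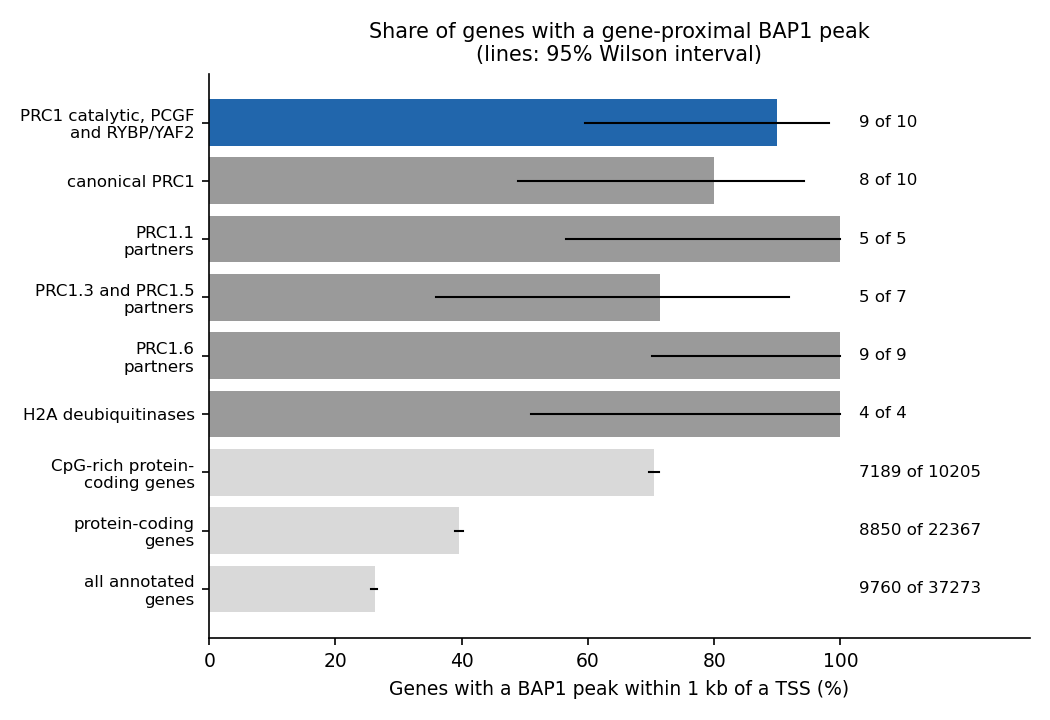
Percentage of genes with a BAP1 peak within 1 kb of a TSS, for the PRC1 genes described here (blue), 5 lists of related genes (dark grey) and all genes of the annotation (light grey), with 95% Wilson intervals as lines and the counts at the right. The bars for the PRC1 genes and the related lists lie between 71.4 and 100.0%, and the interval of each includes the 70.4% of CpG-rich protein-coding genes. The intervals give counting error only, and the lists were chosen with earlier results of these data known, so they are no test. Over the 5 lists together, 31 of 35 genes had a peak with any TSS and 27 of 35 with 1 TSS per gene.

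The number that a peak carries in the deposited list followed its distance to the nearest TSS, with a Spearman correlation of 0.85 over 13164 peaks (peaks share the cells, and the value is a description). At 8 of the 9 bound genes, from 47 to 50 of the 50 peaks next to theirs in the list were within 1 kb of a TSS. The peak of *Yaf2*, 28 bp from a TSS, is number 2412, and its 50 neighbors in the list had a median distance of 28 bp. For *Rnf2*, at 227 bp and number 8072, that median was 185 bp. The peaks at the internal start of *Pcgf5* stood apart, since at 0.128 and 0.027 kb from a TSS they are numbers 11892 and 11897, and their list neighbors had median distances of 20.3 and 21.0 kb. From the first GENCODE TSS these peaks are 30553 and 30708 bp away, and the third *Pcgf5* peak, number 11900, is 30778 bp away on the other side, which is the order of their numbers. The paper ranked its binding sites by distance to the nearest TSS, and the annotation behind the numbers in the list was not tested.

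**Figure D5:**
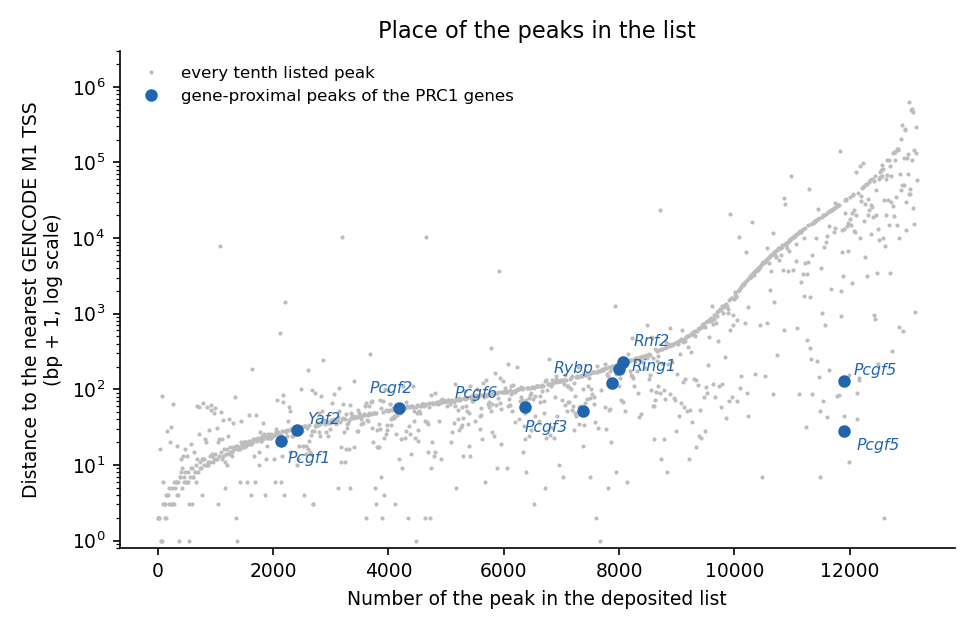
Distance of peaks to the nearest GENCODE M1 TSS (bp plus 1, log scale) against their number in the deposited list, with 1 peak in 10 in grey and the gene-proximal peaks of the PRC1 genes in blue. The 2 *Pcgf5* peaks lie far below the upper edge of the grey points at their place in the list, where few grey points lie as low.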

How the data were processed

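Reads of both ChIP-Seq samples (anti-BAP1, anti-FLAG) were mapped to mm9 by the authors with Bowtie 1.0.0, and peaks were called with MACS (version 1.4.2 in the submitters' processing notes) against input DNA of the same cells. The deposited list gives peak boundaries in bp for both samples together, with all intervals 200 bp wide. The rule that joined the samples and the threshold of the caller are not given in the sources used here, and no stricter threshold was tried because the list used here has no score. Read intensities per peak in the paper's supplement were not used here.

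Peaks were placed on GENCODE M1 (NCBIM37, the build called mm9), without the mitochondrial genes. The middle of a peak is its start plus 100. The CpG ratio was computed from the 500 bp before and after a TSS, and motifs were matched by letter in the 200 bp of each peak. RefSeq promoters (given on GRCm38.p6, 250 bases before each start) were matched exactly by sequence to mm9. All 9 promoters of the 7 genes in that table matched. *Pcgf1*, *Rybp* and *Yaf2* had no promoter in that table.

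The genes and lists were chosen with earlier results of these data known, so counts are given beside those of all genes with no test. The text names all 10 genes, every gene that shares a gene-proximal peak with them, the genes of the related lists without a peak, and the deubiquitinases. Neighboring genes with peaks within 50 kb, and bound genes of the related lists, were named after their values were seen. Alternatives were other windows and ranges, the edge of the peak, 1 TSS per gene, coding TSSs, neighboring peaks merged when 500 bp or less apart, a CpG ratio over 250 bp on each side, and motif windows of 100 and 300 bp. The use of RefSeq starts, the ranges of the CpG ratio and the order of the list were added after seeing the data. The code was tested on simulated data, where 3000 of 3000 nearest distances equaled those of bedtools and 500 of 500 planted motifs were found. Python 3.11.15, numpy 2.4.6, pandas 2.3.3, scipy 1.17.1, pysam 0.24.0 and bedtools 2.31.1 were used.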

Additional observations from a re-analysis of the deposited data

How the results depend on the processing

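Of the 67 alternative values, 60 stayed within the range counted as unchanged, 7 moved and 0 reversed. The number of bound genes was 9 with every window, with the edge of the peak, with coding TSSs and with merged peaks, and it was 8 with 1 TSS per gene, that of the longest transcript, because *Pcgf5* is then represented by its first start. The count of genes with the nearest peak beyond 1 kb and within 50 kb then rose from 1 to 2, and the TSSs within 1 kb of a peak fell from 18 to 8, of 10. The peak shared with *Mir219-1* was not counted with a window of 500 bp or with coding TSSs, which gave 0 genes. With RefSeq starts, 6 of the 7 genes matched had a peak, *Bmi1* being the exception again. With 1 TSS per gene, 27 of the 35 related genes were bound, and 2 of 5 for the PCGF1 complex. The other 3 values that moved were motif counts, with the E-box falling from 2 to 0 and the CCAAT box from 2 to 1 in the central 100 bp, and E2F rising from 1 to 2 over 300 bp. The GC box fell from 9 to 6 in the central 100 bp. *Pcgf2* was no longer CpG-rich over 250 bp on each side, at 0.572. No paired analysis was possible because 1 list serves both samples and no test was run. Depth limits the list itself, since an unlisted peak at *Bmi1* may lie below the caller's threshold, which was not tested. Counting intervals of a list of 10 genes are wide.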
